A study of Mus musculus with 12 samples.

Results

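Mural granulosa cells (MGCs) form the lining of the antral follicle. They were compared with cumulus cells, which surround the oocyte, in the 6 wild-type (WT) libraries of a series of 12 libraries. The question was how the transcriptomes of the follicle wall and of the cumulus differ in normal females during the first hours of the ovulatory response. The WT animals were C57/BL6 females that were injected while immature with equine chorionic gonadotropin (eCG) to grow antral follicles and then with human chorionic gonadotropin (hCG), which acts through the luteinizing hormone (LH) receptor. RNA was taken at 2 h post-hCG from 3 MGC and 3 cumulus samples, all from WT animals and all after hCG, so the comparison contains no untreated cells. The labels do not say how many animals or follicles stand behind a sample or which MGC and cumulus samples came from the same animal, and p-values therefore describe the spread between samples. The remaining 6 libraries are MGCs and cumulus cells of Sphk1/2gc-/- females, which lack Sphk1 in every cell and lose Sphk2 through Fshr-Cre in granulosa cells.

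The values were FPKM, that is, fragments per kilobase of exon, scaled to the counted reads of the library. Genes listed in both the MGC and the cumulus table, whose mean reached 0.5 FPKM in either WT cell type, entered the comparison, which kept 15339 of the 26382 genes that both tables list. Just inside this limit was Gm43040 with means of 0.50002 FPKM in MGCs and 0.21026 FPKM in cumulus cells, and just outside it was Cga with 0.49978 and 0.28028 FPKM. Of the 15339 genes, 10441 had a mean of at least 0.5 FPKM in both cell types, 3983 reached it in MGCs alone and 915 in cumulus cells alone. Differences are given as the MGC mean minus the cumulus mean of log2(FPKM + 1), so that a positive value means a higher level in MGCs; on this scale the change of a low gene is understated. A gene was called different when limma gave a Benjamini-Hochberg adjusted p of at most 0.05 and the difference was at least 1, which is 2-fold.

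MGCs and cumulus cells descend from the same granulosa precursors and part when the antrum forms. MGCs carry most of the LH receptor, release the EGF-like peptides that relay the LH signal inward and become the steroid-producing luteal cells after ovulation. Cumulus cells couple to the oocyte through gap junctions, feed it with metabolites and amino acids, hold it in meiotic arrest through cGMP, and lay down a hyaluronan matrix before ovulation.

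The WT libraries differed little in depth. Reads in the FPKM denominator, recovered from the step between low values, numbered 16492881 to 16861688 in MGC libraries and 16100344 to 17976646 in cumulus libraries. Between 14111 and 15001 genes reached 0.5 FPKM in an MGC library and between 11276 and 11706 in a cumulus library. The correlation of log2(FPKM + 1) across genes was 0.971 to 0.988 within MGCs, 0.985 to 0.988 within cumulus cells and 0.648 to 0.699 between the cell types. A pair of libraries stood somewhat apart from their groups. MGC library 3 had the lower correlations within its cell type, and cumulus library 3 listed 27541 genes above 0 where the other cumulus libraries listed 18934 and 19289. Without MGC library 3, 5538 genes were higher in MGCs and 2440 in cumulus cells, and without cumulus library 3 the counts were 5326 and 2499, beside 5296 and 2450 with all libraries.

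The difference between the cell types followed the base composition and length of the transcripts. Among 12385 protein-coding genes, the median difference was -0.29 for transcripts with at most 40% GC, 0.48 for those between 45% and 50%, and 1.53 for those above 60%. The share of genes higher in MGCs went from 10.1% in the lowest of these classes to 69.3% in the highest, and the share higher in cumulus cells from 29.9% to 3.84%. Across genes, which are not independent replicates, Spearman's rho between the level and GC content lay between 0.00 and 0.03 in the MGC libraries and between -0.34 and -0.28 in the cumulus libraries. For the difference between the cell types it was 0.39. When each library was set against the others of its cell type, rho was -0.32, 0.04 and 0.30 in cumulus libraries 1, 2 and 3. In MGC libraries 1, 2 and 3 it was -0.06, 0.17 and -0.08. Median differences also went from -0.16 for transcripts of up to 1000 bases to 0.99 for those over 6000 bases. The labels give the same preparation kit for both cell types, and what part of this slope belongs to the cells and what part to the RNA or the libraries was not tested. Each difference below is therefore followed, where it changes the reading, by its value after the smooth relation with GC content and length had been removed from every library, an alternative chosen after the data had been seen and called the adjusted difference. What is removed depends on GC content and length and not on the level of the gene. For a gene with almost no reads in cumulus cells it can exceed the whole difference. A negative adjusted value of such a gene does not show a higher level in cumulus cells.

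**Figure D1:**
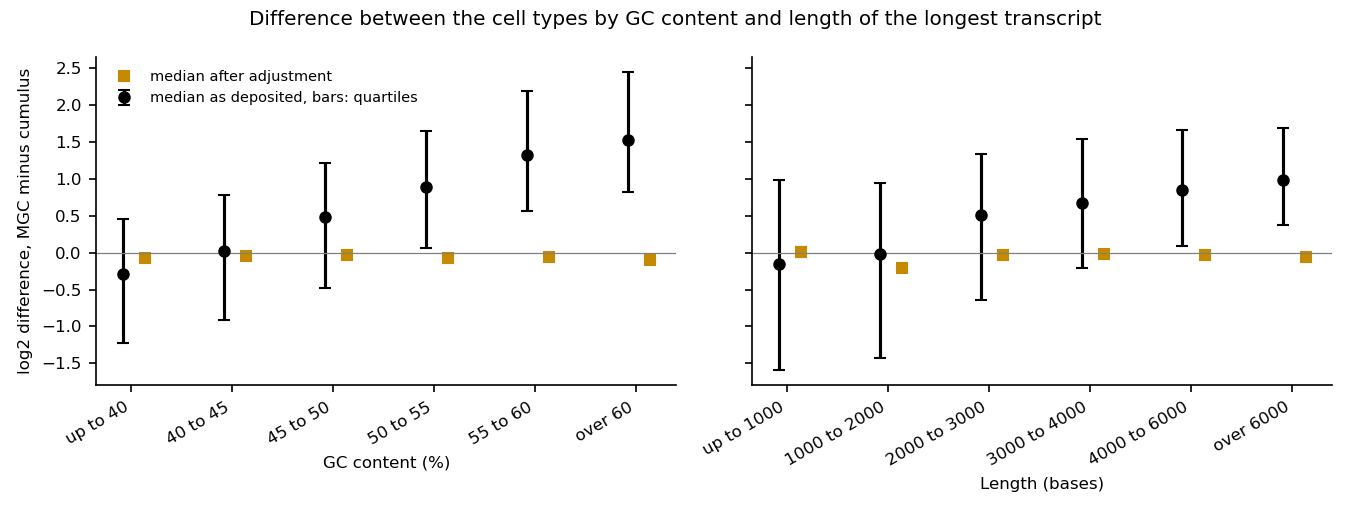
Difference between WT MGCs and WT cumulus cells on the log2(FPKM + 1) scale by GC percent (left) and by bases of the longest transcript (right), for 12385 protein-coding genes, with the median and the quartiles of each class. The median went from -0.29 in the class of lowest GC content to 1.53 in the class of highest GC content.

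Transcripts of other ovarian and blood cells moved with the cell type as well. The summed FPKM of each of 11 marker lists did not overlap between the groups and was the higher in MGCs for every one of them, the granulosa list included, which reached 9287 to 15576 FPKM in MGC libraries and 4449 to 5831 FPKM in cumulus libraries. Such a lack of overlap was the common case, found in 83.3% of all genes tested. Oocyte markers summed to 48.7 to 135 FPKM in MGC libraries and 5.07 to 9.74 FPKM in cumulus libraries. Of 14 tested, 13 were called higher in MGCs, beside 34.5% of all genes, and 9 of the 14 had reached the limit of 0.5 FPKM in MGCs alone. Theca markers summed to 351 to 791 FPKM against 33.5 to 76.4 FPKM, and stroma markers to 90.1 to 172 FPKM against 6.61 to 25.3 FPKM. For neutrophils the sums were 172 to 275 FPKM against 2.94 to 25.7 FPKM, and for erythroid cells, mostly the globins Hbb-bs and Hba-a1, 258 to 397 FPKM against 4.37 to 27.0 FPKM. Endothelial markers stayed at 17.9 to 22.3 FPKM against 1.19 to 2.12 FPKM, macrophage markers at 46.6 to 147 FPKM against 2.44 to 38.2 FPKM, pericyte markers at 57.8 to 69.1 FPKM against 6.14 to 24.7 FPKM, and surface epithelium markers at 39.8 to 60.8 FPKM against 11.3 to 16.1 FPKM. Lymphocyte markers were near 0 in both, with sums of 1.496 to 2.17 FPKM and 0.285 to 0.668 FPKM. The lymphocyte markers Cd3d and Nkg7 and the smooth muscle marker Tagln were at 0 in all 3 cumulus libraries. In bulk samples fewer cells of a type and less RNA per cell cannot be told apart, and the part of these cells in the differences below was not tested.

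**Figure D2:**
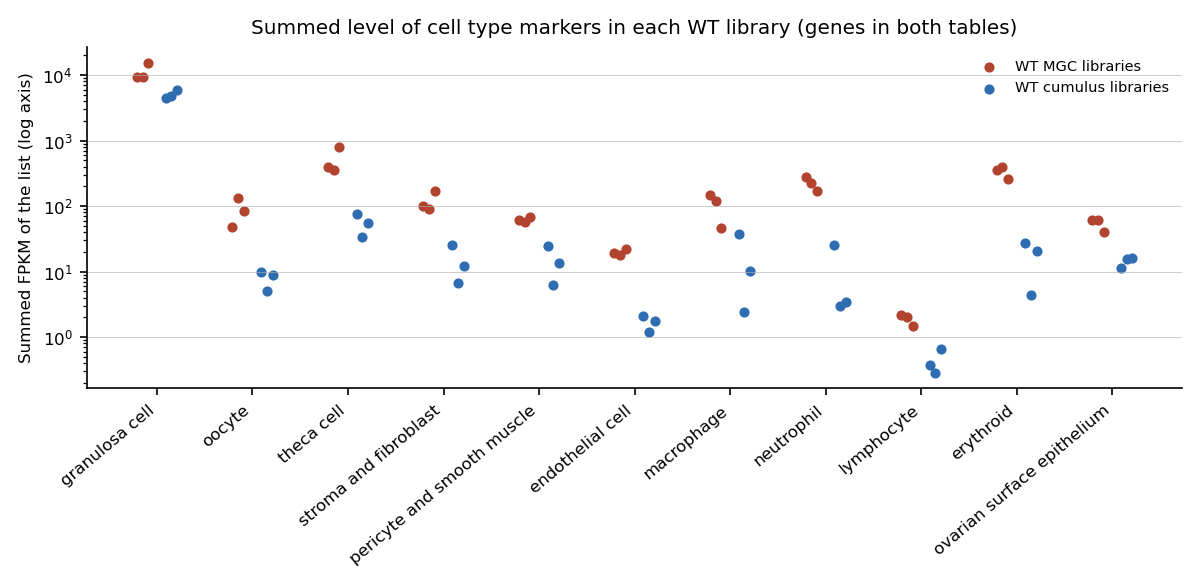
Summed FPKM of the marker lists of granulosa cells and other cell types in each of the 6 WT libraries, on a log axis, MGC and cumulus libraries in separate colors. Each list is higher in all 3 MGC libraries, oocyte and neutrophil markers included.

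The labels could be checked against genes known to mark the follicle wall or the cumulus. Lhcgr, the LH receptor, and Cyp11a1 and Star of steroid synthesis, all typical of the wall, were higher in the libraries labelled MGC, and Has2 and Ptx3, which build the cumulus matrix, were higher in the libraries labelled cumulus. Other genes of that matrix, Tnfaip6 (2.27), Ptgs2 (1.65), Vcan (4.80) and Has1 (3.29), were higher in the libraries labelled MGC. Amh, Slc38a3 and Npr2, usually described as cumulus transcripts in mouse antral follicles, also went against this order. Amh, an inhibitor of follicle recruitment, measured 113, 119.9 and 174 FPKM in MGCs and 0.112, 1.90 and 0.102 FPKM in cumulus cells. Slc38a3, a carrier of alanine and other amino acids that the oocyte takes up poorly by itself, measured 39.4, 41.6 and 23.6 FPKM against 0.341, 1.66 and 1.01 FPKM. Samples are called by their labels throughout.

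With these libraries 7746 genes were called, 50.5% of those tested, of which 5296 (34.5%) were higher in MGCs and 2450 (16.0%) in cumulus cells. In 12779 genes (83.3%) the 6 libraries did not overlap, so that a gene whose groups do not overlap is the common case here. The median difference of all genes was 0.58, and a list with a median near that value did not stand out in direction. That median was 0.98 with a pseudocount of 0.1, 0.28 with voom on recovered reads, 0.19 for genes of at least 1 FPKM in both cell types and 0.04 with quantile normalization. Genes that reached 0.5 FPKM in MGCs alone could hardly be called for cumulus cells, and they made up 11 of 22 tested cAMP genes, 10 of 20 FGF genes, 10 of 24 protease genes, 16 of 37 junction genes, 9 of 22 KIT and IGF genes, 8 of 21 S1P and calcium genes and 8 of 26 angiogenic genes, but 0 of the replication and mitosis genes. Counts of such lists do not by themselves support a direction. Of all calls 68.4% were higher in MGCs. That split was 46.9% when the libraries were forced to the same distribution by quantile normalization, 76.1% when all were scaled to the same sum, 55.1% for recovered reads with voom and 55.3% for genes of at least 1 FPKM in both cell types. After the adjustment 3075 genes (20.1%) were higher in MGCs and 3044 (19.9%) in cumulus cells, 39.9% together, with a median of -0.00. The adjustment gives every library the same mean over its genes. The near-even split and this median therefore follow largely from the method. Of the genes called at first, 2607 higher in MGCs and 2107 higher in cumulus cells were also called after it in the same direction, and 35 in the opposite one.

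The 2 cell types were compared again in the Sphk1/2gc-/- libraries, which share no library with the WT comparison. There 4954 of 14983 genes (33.1%) were higher in MGCs and 2165 (14.4%) in cumulus cells. Of 5237 genes higher in WT MGCs and tested in both genotypes, 4227 (80.7%) were also called higher in Sphk1/2gc-/- MGCs, and of 2434 higher in WT cumulus cells, 1762 (72.4%) were again higher in cumulus cells. The call was opposite for 7 genes. After adjustment in both genotypes, 71.8% of 2998 genes and 70.0% of 2967 were called again in the same direction, and 12 were opposite. Table and cell type coincide in both genotypes, so a difference between the tables would recur here, and its part was not tested.

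**Figure D3:**
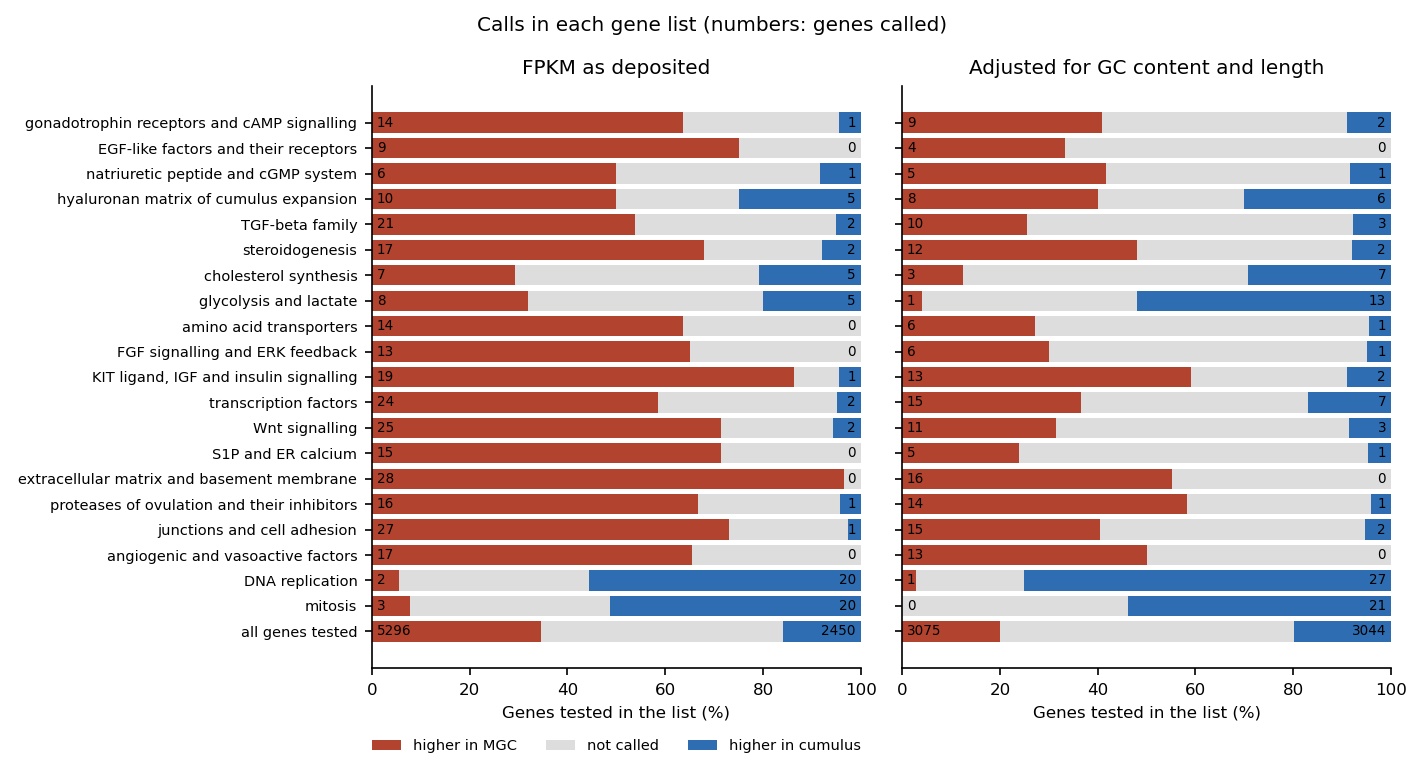
Share of the tested genes of each list called higher in MGCs, called higher in cumulus cells or not called, as deposited (left) and after adjustment for GC content and length (right), with the counts printed in the bars. Matrix genes have 28 calls for MGCs and 0 for cumulus cells as deposited, and DNA replication and mitosis have 20 calls each for cumulus cells.

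Lhcgr, the receptor that receives hCG, was higher in MGCs, as were most called genes of cAMP, the messenger of this receptor. Lhcgr, on chr17:88716481-88791990, measured 249, 213 and 565 FPKM in the MGC libraries and 18.7, 7.71 and 12.6 FPKM in the cumulus libraries. Its difference was 4.56 ± 0.42 (SE) with an adjusted p of 3.08e-05, and 4.13 after adjustment. Lhcgr is also a theca transcript, and the theca androgen enzyme Cyp17a1 measured 84.4, 72.9 and 170.2 FPKM beside 26.2, 9.45 and 18.1 FPKM in the same libraries. Fshr, the receptor for follicle-stimulating hormone, measured 54.7, 55.1 and 69.5 FPKM in MGCs and 94.0, 104 and 118 FPKM in cumulus cells. All 3 cumulus libraries were above the MGC libraries, yet the difference of -0.81 ± 0.14 (SE) did not reach 2-fold (adjusted p = 0.00111). Of 22 tested genes of this list, 14 were called higher in MGCs and 1 in cumulus cells, with a median of 1.72. After adjustment the counts were 9 and 2. The shares of all genes tested were 34.5% and 16.0% as deposited, and 20.1% and 19.9% after adjustment. Of the 22 genes, 11 reached 0.5 FPKM in MGCs alone.

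Downstream of the receptor, transcripts for both the supply and the removal of cAMP differed. Adcyap1, which encodes the peptide PACAP, an activator of adenylyl cyclase, measured 23.9, 18.9 and 5.82 FPKM in MGCs and at most 0.327 FPKM in a cumulus library (difference 3.71 ± 0.44 (SE), adjusted difference 3.92). Adenylyl cyclase Adcy6 gave 3.05 ± 0.18 (SE), and the cAMP phosphodiesterases Pde7b and Pde4d gave 2.69 ± 0.19 (SE) and 1.96 ± 0.14 (SE). The regulatory subunit Prkar2b of protein kinase A measured 523, 474 and 869 FPKM against 207, 165 and 202 FPKM, whereas the more widely used Prkar1a was not called, at 0.35 ± 0.16 (SE). Rgs2, which dampens G-protein signaling, was the 1 member called higher in cumulus cells, with 725, 733 and 607 FPKM in MGCs and 1604, 1353 and 1734 FPKM in cumulus cells. After adjustment its difference of -0.89 no longer reached 2-fold.

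The EGF-like ligands that carry the LH signal from the wall to the cumulus were among the clearest differences. Areg, Ereg and Btc encode amphiregulin, epiregulin and betacellulin, and all 3 lie on chromosome 5, Areg at chr5:91139599-91148432. The upstream sequence of Areg is shown because this gene is switched on by cAMP through a cAMP response element (CRE), the letters TGACGTCA. The 250 bases before its start (RefSeq, GRCm38.p6, plus strand, chr5:91139349-91139598) hold 1 match, from 61 to 54 bases before the start, in capitals.
Areg: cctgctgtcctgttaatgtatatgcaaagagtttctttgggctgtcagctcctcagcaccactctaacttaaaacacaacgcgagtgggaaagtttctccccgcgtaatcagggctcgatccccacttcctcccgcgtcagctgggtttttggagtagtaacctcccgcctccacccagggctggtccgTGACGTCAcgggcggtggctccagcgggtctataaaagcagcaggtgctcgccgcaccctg
These letters, which read the same on both strands, occur in the same window of 1.62% of 27025 promoters, of 2.83% of the 10221 promoters of tested genes, and in 1 of the 11 promoters of this list that could be matched, that of Areg.

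Areg measured 1672, 1552 and 1705 FPKM in MGCs and 85.9, 43.4 and 93.5 FPKM in cumulus cells, a difference of 4.52 ± 0.28 (SE) with an adjusted p of 3.66e-06. For Ereg the values were 977, 854 and 908 FPKM against 32.8, 12.99 and 26.0 FPKM, and for Btc 189, 166 and 152 FPKM against 14.6, 10.6 and 20.8 FPKM. In each of the 3 genes the lowest MGC library was far above the highest cumulus library, and cumulus library 2 was the lowest of its group. The adjusted differences were 4.84, 5.54 and 3.80, no smaller than those before. Egfr, the receptor for these ligands, was at 8.34, 9.01 and 14.8 FPKM in MGCs and 3.26, 1.89 and 2.03 FPKM in cumulus cells, and its difference of 1.77 became 0.93, short of 2-fold, after adjustment. Lrig1, a negative regulator of EGF receptors, and the receptor Erbb2 gave 2.72 and 2.39, and 0.95 and 0.43 after adjustment. Neither Hbegf (0.77 ± 0.24 (SE)) nor the receptor inhibitor Errfi1 (0.57 ± 0.38 (SE)) was called. Without MGC library 3, both were, at 1.03 and 1.002. Of 12 tested genes 9 were called higher in MGCs and 0 in cumulus cells (median 1.85), and 4 and 0 after adjustment. The limma count for cumulus cells was also 0 at an unadjusted p under 0.05, and 0 with voom on recovered reads. Over all genes these settings gave 4096 of 15339 and 4558 of 15321 higher in cumulus cells. Of the 12 genes, 3 reached 0.5 FPKM in MGCs alone. Among all genes tested 34.5% were higher in MGCs as deposited and 20.1% after adjustment.

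**Figure D4:**
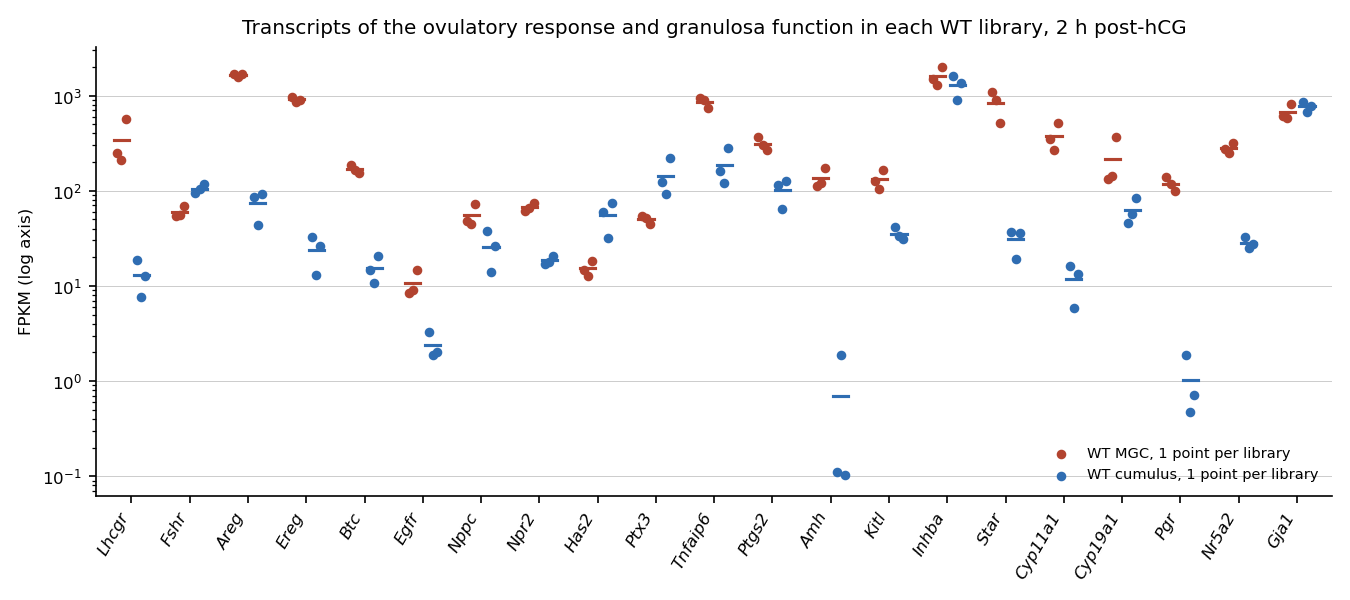
FPKM of genes of the ovulatory response and granulosa function, on a log axis, with 1 point per library and a bar at each group mean, MGCs and cumulus cells in separate colors. The 3 MGC libraries lie above the 3 cumulus libraries for the LH receptor and the EGF-like ligands, and below them for Has2.

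In the cGMP system, the wall makes the peptide NPPC and its receptor NPR2 in granulosa cells produces the cGMP that keeps the oocyte in arrest. Nppc measured 48.2, 44.95 and 73.4 FPKM in MGCs and 37.3, 14.0 and 26.4 FPKM in cumulus cells, with a difference of 1.14 ± 0.35 (SE) (adjusted p = 0.0166) that was lost without MGC library 3 (0.92) and without cumulus library 2 (0.77). Npr2 measured 61.9, 65.4 and 74.2 FPKM against 17.1, 18.0 and 20.7 FPKM. Its difference of 1.80 ± 0.12 (SE) was 0.24 after adjustment, and no call remained. The receptors for other members of the family were lower still in cumulus cells. Npr1, the receptor for atrial natriuretic peptide, measured 86.7, 74.3 and 66.0 FPKM in MGCs and 0, 0.0116 and 0.0833 FPKM in cumulus cells (6.21, adjusted 4.30). Npr3, which clears natriuretic peptides, gave 2.97 ± 0.24 (SE). Of the enzymes that feed guanine nucleotides into this system, Impdh1 was higher in MGCs by 3.80 and Impdh2 was not called (0.14 ± 0.19 (SE)). In all, 6 of 12 genes were higher in MGCs and 1, the cGMP phosphodiesterase Pde9a, in cumulus cells, at a median of 0.90. The shares of all genes tested were 34.5% and 16.0%.

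Genes of the hyaluronan matrix, which swells the cumulus before ovulation, were divided between the cell types. Has2, the main hyaluronan synthase of the cumulus, measured 14.8, 12.7 and 18.3 FPKM in MGCs and 59.8, 31.9 and 74.6 FPKM in cumulus cells, a difference of -1.73 ± 0.30 (SE) with an adjusted p of 0.00108 and an adjusted difference of -1.62. Ptx3, the pentraxin that cross-links the matrix, measured 54.6, 51.1 and 44.2 FPKM against 124, 91.3 and 218 FPKM (-1.42 ± 0.29 (SE)). Both were higher in every cumulus library than in any MGC library, with cumulus library 2 the lowest of its group. Under quantile normalization Ptx3 gave -0.99 and was no longer called. Ptger2, the prostaglandin E2 receptor of cumulus cells, gave a difference of -1.0009 that was lost without MGC library 2 (-0.98) and without cumulus library 2 (-0.82), and Bambi, a decoy receptor of the TGF-beta family, -1.33.

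Other parts of the same matrix pointed to the wall. Tnfaip6, which transfers protein chains onto hyaluronan, measured 938, 889 and 747 FPKM in MGCs and 159, 122 and 282 FPKM in cumulus cells (2.27 ± 0.29 (SE)). Vcan, the proteoglycan versican, measured 384, 366 and 485 FPKM against 15.1, 11.9 and 14.3 FPKM, and Adamts1, the protease that cleaves it, 163, 164 and 273 FPKM against 5.66, 2.31 and 5.94 FPKM. The prostaglandin synthase Ptgs2 measured 365, 303 and 268 FPKM against 114, 64.1 and 127 FPKM (1.65 ± 0.26 (SE)), and the second hyaluronan synthase Has1 was at 15.5, 16.9 and 10.3 FPKM against 0.416, 0.266 and 1.01 FPKM. Levels of Ptges, which makes prostaglandin E2 from the product of Ptgs2, were not called different (-0.65 ± 0.23 (SE)), but its adjusted difference of -1.90 was called for cumulus cells. Of 20 tested genes, 10 were higher in MGCs and 5 in cumulus cells as deposited, and 8 and 6 after adjustment. All genes tested gave 34.5% and 16.0%, and 20.1% and 19.9% after adjustment.

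Transcripts of steroid synthesis that were higher in the wall included Star, Cyp11a1, Scarb1 and Por. Star, which moves cholesterol into mitochondria, measured 1080.2, 889.9 and 521 FPKM in MGCs and 37.1, 19.4 and 35.8 FPKM in cumulus cells, a difference of 4.70 ± 0.33 (SE) (adjusted p = 7.50e-06). Cyp11a1, which cuts cholesterol to pregnenolone, measured 346, 267 and 519.7 FPKM against 16.3, 5.86 and 13.5 FPKM (4.93 ± 0.38 (SE)). Scarb1, the receptor that takes up cholesterol from lipoproteins, measured 379, 372 and 327 FPKM against 5.81, 7.91 and 11.7 FPKM, and Por, the electron donor of microsomal P450 enzymes, 116, 119.9 and 131 FPKM against 1.99, 2.67 and 4.19 FPKM. These 4 genes kept adjusted differences of 4.31, 4.30, 5.04 and 3.31.

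Hsd3b1, Cyp19a1, Hsd17b1, Fdx1 and Sult1e1 differed less or in the other direction. Hsd3b1, which makes progesterone, was among the most abundant transcripts higher in MGCs, at 1908, 1579 and 3569 FPKM against 757, 837 and 897 FPKM (1.41 ± 0.29 (SE)). Cyp19a1, the aromatase that makes estrogen, measured 132, 144 and 366 FPKM against 45.3, 57.4 and 83.7 FPKM (1.65 ± 0.41 (SE)), and most of its spread lay in MGC library 3. Hsd17b1, which turns estrone into estradiol, was higher in cumulus cells, with 287, 278 and 561 FPKM in MGCs and 1076, 1131 and 1198 FPKM in cumulus cells (-1.67 ± 0.27 (SE), adjusted -1.73). Fdx1, the ferredoxin of mitochondrial P450 enzymes, was abundant in both, at 1133, 1069.7 and 1292 FPKM in MGCs and 917, 762 and 1191 FPKM in cumulus cells, and was not called (0.30 ± 0.19 (SE)), nor was Sult1e1, the estrogen sulfotransferase (0.50 ± 0.38 (SE)), whose libraries overlapped and whose adjusted difference of 1.20 was called for MGCs. Over the list, 17 of 25 genes were higher in MGCs and 2 in cumulus cells (median 1.44), and 12 and 2 after adjustment. For all genes tested the shares were 34.5% and 16.0%, and 20.1% and 19.9% after adjustment.

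Genes of cholesterol synthesis, like all genes tested, were called in both directions. Acat2, the first enzyme of the route, measured 4.00, 2.93 and 6.67 FPKM in MGCs and 48.2, 57.0 and 59.5 FPKM in cumulus cells (-3.39 ± 0.24 (SE)), Pmvk 8.74, 7.17 and 11.8 FPKM against 54.6, 51.0 and 58.8 FPKM, and Idi1 12.9, 10.7 and 20.7 FPKM against 106, 93.6 and 135 FPKM. On the MGC side stood Dhcr7, the last enzyme, with 32.4, 27.1 and 56.9 FPKM against 1.08, 0.832 and 2.35 FPKM (4.02 ± 0.32 (SE)), and the transcription factor Srebf2, which drives the route, with 3.72 ± 0.27 (SE). Sqle (-0.52 ± 0.24 (SE)) and Cyp51 (-0.08 ± 0.30 (SE)) were not called, but the adjusted difference of Sqle, -1.30, was called for cumulus cells. Of 24 genes 7 were higher in MGCs, 5 in cumulus cells and 12 were not called, with a median of 0.11. After adjustment 3 were higher in MGCs and 7 in cumulus cells (median -0.27), and with voom 5 and 11. All genes tested gave shares of 34.5% and 16.0% as deposited, and 20.1% and 19.9% after adjustment.

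Among growth factors of the TGF-beta family, the inhibin and activin subunits are the classical granulosa products. Inha, the shared alpha subunit of inhibins, was the most abundant protein-coding transcript called higher in MGCs, at 6719, 6699 and 11595 FPKM in MGCs and 1213, 1562 and 2114 FPKM in cumulus cells (2.34 ± 0.29 (SE), adjusted 1.64). The beta subunits Inhba (0.33 ± 0.25 (SE)) and Inhbb (0.44 ± 0.32 (SE)) were not called, and their libraries overlapped. The adjusted difference of Inhbb, whose transcript has 60.9% GC, was -1.68 and was called for cumulus cells. Fst, follistatin, which binds activin, measured 606, 558 and 758 FPKM against 187, 200.04 and 276 FPKM (1.54 ± 0.19 (SE)).

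Amh had one of the widest gaps of all genes. Its difference was 6.46 ± 0.38 (SE) with an adjusted p of 3.18e-06, and 4.81 after adjustment of a transcript with 65.4% GC, and cumulus library 2 was the one cumulus library above 1 FPKM. Its receptor Amhr2 measured 56.1, 58.7 and 65.1 FPKM against 11.6, 24.0 and 19.3 FPKM (1.71, adjusted 0.55 and not called). Bmp2 measured 71.1, 59.2 and 21.5 FPKM in MGCs and stayed under 0.5 FPKM in each cumulus library, and Tgfb1 was at 13.1, 14.4 and 11.6 FPKM against 0, 0 and 0.0452 FPKM. Id1, a target that bone morphogenetic proteins switch on, was higher in cumulus cells, at 19.3, 20.1 and 4.50 FPKM in MGCs and 29.8, 61.5 and 49.9 FPKM in cumulus cells (-1.79 ± 0.53 (SE)), and was no longer called without cumulus library 2 (-1.57). With Id3 it was the exception in this list. There 21 of 39 genes were higher in MGCs and 2 in cumulus cells (median 1.19), and 10 and 3 after adjustment. Shares of all genes tested were 34.5% and 16.0%, and 20.1% and 19.9% after adjustment.

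Kitl, the KIT ligand that granulosa cells present to the oocyte and theca, measured 127, 105 and 165 FPKM in MGCs and 41.5, 33.1 and 30.9 FPKM in cumulus cells (1.87 ± 0.19 (SE), adjusted 1.83). Transcripts of the proteins that bind or free insulin-like growth factor were far apart. Pappa, the protease that releases the factor from its binding proteins, measured 22.7, 18.0 and 53.9 FPKM against 0.721, 0.353 and 0.651 FPKM, Igfbp6 22.8, 21.7 and 22.7 FPKM against 0.223, 0.200 and 0.358 FPKM, and Igfbp5 44.1, 42.2 and 42.7 FPKM against 1.44, 2.03 and 1.27 FPKM. Igf1 itself was higher in cumulus cells, with 10.6, 9.47 and 13.1 FPKM in MGCs and 26.2, 26.8 and 22.9 FPKM in cumulus cells (-1.13 ± 0.14 (SE)). It was the 1 gene of 22 called for cumulus cells, beside 19 called for MGCs at a median of 2.35. After adjustment 13 were called for MGCs and 2 for cumulus cells. Shares of all genes tested were 34.5% for MGCs and 16.0% for cumulus cells, and 20.1% and 19.9% after adjustment. Foxo1, the transcription factor that insulin signaling switches off, was not called (0.26 ± 0.18 (SE)), and its adjusted difference of -1.06 lay on the cumulus side.

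Immediate early and ovulatory transcription factors were mostly higher in MGCs. Nr4a1, a nuclear receptor that gonadotropin and cAMP induce within the hour, was among the genes with the largest differences. Its promoter is shown because it holds several copies of a shorter CRE-like letter string, TGACGCA, searched on both strands; the reverse strand reads TGCGTCA. The 250 bases before its start (RefSeq, GRCm38.p6, plus strand, chr15:101266596-101266845) hold 4 matches, in capitals, the nearest of them 42 to 36 bases before the start.
Nr4a1: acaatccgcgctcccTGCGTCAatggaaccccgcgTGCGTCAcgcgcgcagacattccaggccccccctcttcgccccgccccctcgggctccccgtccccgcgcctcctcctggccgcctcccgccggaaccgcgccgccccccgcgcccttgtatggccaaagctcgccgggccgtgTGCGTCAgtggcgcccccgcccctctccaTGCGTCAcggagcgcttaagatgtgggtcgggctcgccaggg
The string occurs in the same window of 1.78% of 27025 promoters, of 3.10% of those of tested genes, and in 3 of 31 matched promoters of this list, those of Cebpb, Fosb and Nr4a1.

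Nr4a1 measured 660.2, 669 and 645 FPKM in MGCs and 7.88, 3.44 and 18.5 FPKM in cumulus cells, a difference of 6.17 ± 0.47 (SE) (adjusted p = 1.07e-05, adjusted difference 4.74). Its relative Nr4a3 was at 23.3, 21.3 and 15.3 FPKM against 1.70, 0.911 and 1.36 FPKM. Pgr, the progesterone receptor without which follicles do not rupture, measured 139, 118 and 98.8 FPKM against 1.88, 0.469 and 0.720 FPKM (5.94 ± 0.26 (SE), adjusted 5.03). Of the AP-1 subunits, Jun gave 5.00 and Junb 4.38, while Fos was not called, with 102, 130.4 and 138 FPKM in MGCs and 136, 224 and 266 FPKM in cumulus cells, and its adjusted difference of -1.05 was called for cumulus cells. The ovulatory factors Runx1 and Runx2 gave 2.39 and 2.43. Cebpb, which luteinization requires, had overlapping libraries (-0.19 ± 0.42 (SE)) and an adjusted difference of -1.79, called for cumulus cells.

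Factors of granulosa identity differed as well. Nr5a2, which drives steroid genes and ovulation, measured 273, 247 and 316 FPKM against 32.3, 25.04 and 27.5 FPKM (3.25 ± 0.14 (SE), adjusted 2.99). Foxl2, which maintains granulosa identity, measured 22.0, 22.3 and 17.2 FPKM against 3.15, 3.23 and 2.47 FPKM. Its difference of 2.44 fell to 0.26 in a transcript with 60.8% GC. Gata4, another factor of granulosa cells, was not called, with 43.7, 45.7 and 51.9 FPKM and 37.2, 36.0 and 36.8 FPKM (0.35 ± 0.10 (SE)), but its adjusted difference of -1.47 was called for cumulus cells. The list counted 24 of 41 genes higher in MGCs and 2 in cumulus cells (median 1.67), and 15 and 7 after adjustment. All genes tested gave 34.5% and 16.0%, and 20.1% and 19.9% after adjustment.

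Small RNA hairpins of the same response were read in MGCs. Mir132 and Mir212 lie close together on chromosome 11, are known to be induced by LH in granulosa cells, and were chosen after their values had been seen. Their mature 3p strands are shown because they share a seed, bases 2 to 8, in capitals (RefSeq, GRCm38.p6, plus strand, chr11:75173723-75173744 and chr11:75173443-75173464).
mmu-miR-132-3p: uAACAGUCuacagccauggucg
mmu-miR-212-3p: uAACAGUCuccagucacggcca
Mir132 measured 22.0, 23.5 and 26.1 FPKM in MGCs, from 24, 26 and 29 reads, and 0, 0 and 0.863 FPKM in cumulus cells, from 0, 0 and 1 reads. Mir212 measured 36.6, 30.1 and 27.4 FPKM, from 55, 46 and 42 reads, and was at 0 in all cumulus libraries. The libraries were not made for small RNA, so these reads are of hairpins or their precursors, and the mature strands were not measured.

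Glycolysis, by which cumulus cells turn glucose into the pyruvate and lactate that the oocyte uses, had genes called in both directions. Tpi1 measured 59.3, 61.7 and 77.7 FPKM in MGCs and 276, 343 and 315 FPKM in cumulus cells (-2.22 ± 0.15 (SE)), Pgk1 94.4, 93.6 and 116 FPKM against 593, 599 and 526 FPKM, and Ldha, which makes lactate, 133, 137 and 152 FPKM against 582, 725 and 731 FPKM. Their adjusted differences were -2.42, -2.42 and -2.38. Eno1 (-0.73 ± 0.21 (SE)) and Aldoa (-0.22 ± 0.13 (SE)) were not called, although the adjusted difference of Eno1, -1.80, was. The glucose transporter Slc2a1 was higher in MGCs, at 37.0, 35.7 and 32.4 FPKM against 11.4, 10.9 and 16.7 FPKM, as was the lactate exporter Slc16a3, at 10.6, 10.2 and 17.9 FPKM against 0.771, 0.816 and 1.71 FPKM, but their adjusted differences of 0.10 and 0.85 were not called. The phosphofructokinase Pfkm was also higher in MGCs, at 7.98, 8.10 and 11.9 FPKM against 0.630, 0.847 and 1.10 FPKM (2.46 ± 0.18 (SE)), and was the 1 gene of the list called for MGCs after adjustment (1.22). Of 25 tested genes 8 were higher in MGCs and 5 in cumulus cells (median -0.04), and after adjustment 1 and 13 (median -1.08). For all genes tested the shares were 34.5% and 16.0% as deposited, and 20.1% and 19.9% after adjustment.

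As deposited, amino acid transporters were called for MGCs where limma called them at all. Slc7a8, a carrier of large neutral amino acids, measured 491, 510.4 and 520.0 FPKM in MGCs and 8.01, 7.26 and 12.0 FPKM in cumulus cells (5.68 ± 0.18 (SE), adjusted 4.36). Slc38a3 gave 4.18 ± 0.30 (SE) and 2.77, and Slc7a1, the arginine and lysine carrier, 3.13 ± 0.21 (SE) and 1.61. Slc38a5, at 136, 151 and 138 FPKM in MGCs and 156, 176 and 196 FPKM in cumulus cells, was not called (-0.31 ± 0.12 (SE)). The list held 14 of 22 genes higher in MGCs and 0 higher in cumulus cells (median 1.31), and 6 and 1 after adjustment, when its median was 0.04. For cumulus cells limma gave 1 gene at an unadjusted p under 0.05, and voom called 1, beside 4096 and 4558 of all genes tested. Higher in MGCs were 34.5% of all genes as deposited and 20.1% after adjustment.

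The lists with medians farthest on the cumulus side were those of the cell cycle. The replication factor subunit Rfc4, which loads the sliding clamp onto DNA, measured 5.18, 6.37 and 7.23 FPKM in MGCs and 198, 175 and 152 FPKM in cumulus cells, a difference of -4.60 ± 0.15 (SE) (adjusted p = 3.67e-07). The GINS subunits Gins1 and Gins4, part of the replicative helicase, measured 2.72, 4.09 and 4.22 FPKM against 68.5, 69.0 and 53.0 FPKM and 9.66, 11.0 and 11.0 FPKM against 153, 156 and 124 FPKM. Rpa2, which covers single-stranded DNA, gave -3.36 ± 0.12 (SE), and Orc6 of the origin complex -3.02 ± 0.12 (SE). Of 36 tested genes of DNA replication, 20 were higher in cumulus cells and 2 in MGCs, with a median of -1.10. After adjustment the counts were 27 and 1. Among all genes tested 16.0% were higher in cumulus cells and 34.5% in MGCs, and 19.9% and 20.1% after adjustment.

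Not every replication gene followed. Pcna, the sliding clamp itself, was higher in MGCs, at 97.9, 96.3 and 102 FPKM against 15.6, 14.6 and 12.2 FPKM (2.73 ± 0.12 (SE), adjusted 3.17), and so was Pold1 (1.67, adjusted -0.52 and not called). The helicase subunits Mcm3 (-0.53 ± 0.32 (SE)) and Mcm6 were not called, although the adjusted difference of Mcm3, -1.61, was called for cumulus cells. Mcm6, on chr1:128331590-128359664, measured 16.8, 16.9 and 17.5 FPKM in MGCs and 24.7, 34.2 and 32.3 FPKM in cumulus cells, and its difference of -0.78 ± 0.14 (SE) became -1.35, a call for cumulus cells, after adjustment. Its promoter is shown as an example of the letters bound by E2F, the factor family of replication genes, searched on both strands as TTTCCCGC, TTTCGCGC, TTTGGCGC and TTTGCCGC. The 250 bases before the start (RefSeq, GRCm38.p6, minus strand, chr1:128359706-128359955) hold 3 matches, 2 of which overlap, in capitals.
Mcm6: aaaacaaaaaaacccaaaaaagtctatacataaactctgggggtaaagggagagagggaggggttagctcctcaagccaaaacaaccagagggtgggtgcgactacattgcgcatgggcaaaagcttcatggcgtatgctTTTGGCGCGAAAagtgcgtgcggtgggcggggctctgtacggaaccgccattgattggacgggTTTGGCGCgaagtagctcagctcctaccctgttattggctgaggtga
Such letters stand in 1.91% of 27025 promoters, in 3.42% of those of tested genes, in 8 of 29 matched promoters of the replication list (Cdc6, Gins3, Mcm5, Mcm6, Mcm7, Orc1, Pola1 and Rfc3) and in 2 of 33 of the mitosis list.

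Calls for mitosis genes fell on the cumulus side as well. Birc5, the survivin of the chromosomal passenger complex, measured 5.70, 6.24 and 8.09 FPKM in MGCs and 155, 144 and 122 FPKM in cumulus cells (-4.21 ± 0.15 (SE), adjusted -4.42). Ube2c, which tags cyclins for destruction, was at 23.9, 23.1 and 32.0 FPKM against 314, 335 and 329.6 FPKM, and the kinase Aurka at 10.1, 10.4 and 12.2 FPKM against 92.4, 119.7 and 101 FPKM. Other common markers of dividing cells were not called. Mki67 measured 16.7, 15.2 and 21.3 FPKM and 21.7, 20.2 and 18.4 FPKM (-0.18 ± 0.14 (SE)), Top2a gave -0.35 ± 0.21 (SE) and Ccnb2 -0.17 ± 0.17 (SE). Of these, Mki67 was called for cumulus cells after adjustment (-1.31). Plk1, Incenp and Ncapd2 were higher in MGCs, with 1.95, 2.23 and 2.06, and none of the 3 was called after adjustment (0.92, 0.77 and 0.45). Of 39 genes 20 were higher in cumulus cells and 3 in MGCs (median -1.09), and after adjustment 21 and 0. For all genes tested these shares were 16.0% and 34.5%, and 19.9% and 20.1% after adjustment. The median GC content was 46.1% for mitosis and 48.3% for replication transcripts, beside 49.0% for all genes tested.

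**Figure D5:**
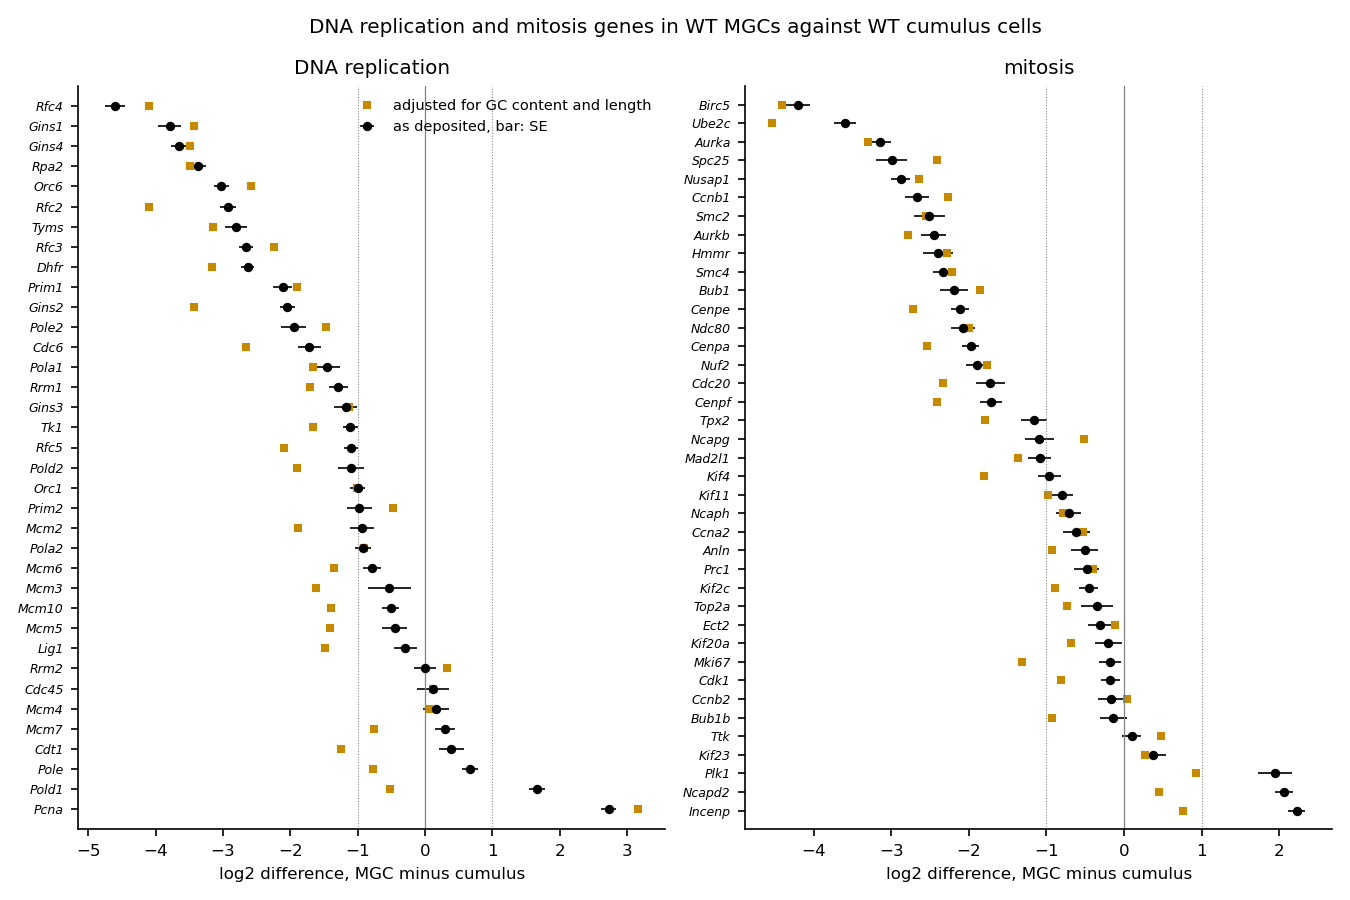
Difference (MGCs minus cumulus cells, log2(FPKM + 1)) of each DNA replication and mitosis gene, on the horizontal axis, as deposited with its SE and after adjustment for GC content and length. Most points lie left of 0, with Rfc4 at -4.60 and Birc5 at -4.21, and Pcna lies at 2.73 on the MGC side.

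Matrix genes had the highest median of the process lists, 2.67, and 28 of 29 tested were higher in MGCs, with 0 higher in cumulus cells, also at an unadjusted p under 0.05 in limma and with voom. At these last 2 settings 4096 and 4558 of all genes tested were higher in cumulus cells. Of the 29, 14 reached the limit of 0.5 FPKM in MGCs alone. Col4a1, a chain of the type IV collagen of basement membranes, measured 49.6, 50.9 and 84.4 FPKM in MGCs and 0.308, 0.0596 and 0.420 FPKM in cumulus cells (5.60 ± 0.22 (SE), adjusted 3.56). The laminin Lamb2 measured 55.7, 57.5 and 69.7 FPKM against 0.797, 0.896 and 1.26 FPKM, and Hspg2, the proteoglycan perlecan, 25.1, 26.2 and 23.8 FPKM against 0.00868, 0.0194 and 0.0398 FPKM (4.67, adjusted 1.69). After adjustment 16 of the 29 were called for MGCs and 0 for cumulus cells. Among all genes tested 34.5% were higher in MGCs as deposited and 20.1% after adjustment. Some transcripts that granulosa cells hardly make moved alongside. The stroma gene Col1a1 measured 21.5, 21.8 and 53.1 FPKM against 0.719, 0.229 and 0.399 FPKM. The endothelial cadherin Cdh5 measured 5.81, 5.53 and 7.39 FPKM against 0.355, 0.106 and 0.190 FPKM. Each had the largest difference of its marker list. Of 9 stroma markers tested 5 were called, and of 9 endothelial markers 6, all for MGCs. The stroma markers Dcn and Lum had overlapping libraries and were not called, nor were the endothelial markers Egfl7 and Emcn. The part of stroma and endothelial cells in the matrix values was not tested.

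Proteases that open the follicle wall at ovulation were led by Plau, urokinase, the protein-coding gene with the largest difference toward MGCs. Plau measured 458, 440.2 and 212 FPKM in MGCs and 0.866, 1.18 and 0.890 FPKM in cumulus cells, a difference of 7.48 ± 0.29 (SE) with an adjusted p of 5.13e-07 and an adjusted difference of 7.53. The metalloproteinases Mmp11 and Mmp14 gave 4.54 and 4.21. Their inhibitor Timp1 was at 53.2, 52.4 and 58.1 FPKM against 10.0, 7.33 and 12.5 FPKM. Serpine2, an inhibitor of urokinase and thrombin, ran the other way without being called, at 388, 393 and 551 FPKM in MGCs and 708, 809 and 1002 FPKM in cumulus cells (-0.92 ± 0.19 (SE)). It was called without MGC library 3 (-1.09) and without cumulus library 1 (-1.04). Of 24 genes 16 were higher in MGCs and 1, the cathepsin Ctsl, in cumulus cells (median 2.33), and 14 and 1 after adjustment. All genes tested gave 34.5% and 16.0%, and 20.1% and 19.9% after adjustment.

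Of the junction and adhesion genes most were called for MGCs, and 9 of 37 were not called. Gja1, connexin 43, through which granulosa cells couple to each other, measured 616, 575 and 814 FPKM in MGCs and 865, 673 and 779 FPKM in cumulus cells and was not called (-0.22 ± 0.17 (SE)). The desmosome gene Dsp was not called either (-0.41 ± 0.18 (SE)), and its adjusted difference of -2.03 was called for cumulus cells. The integrins Itga3 and Itga5, which bind laminin and fibronectin, gave 4.64 and 3.80, and N-cadherin, Cdh2, 2.71 from 32.9, 32.7 and 35.7 FPKM against 4.24, 4.71 and 4.02 FPKM. In this list 27 of 37 genes were higher in MGCs and 1 in cumulus cells (median 1.89), and 15 and 2 after adjustment. Shares of all genes tested were 34.5% and 16.0%, and 20.1% and 19.9% after adjustment. Among angiogenic and vasoactive factors, Vegfa measured 82.0, 77.5 and 59.8 FPKM against 5.07, 2.70 and 4.56 FPKM (3.88 ± 0.21 (SE), adjusted 3.09), and Edn2, the endothelin of ovulation, 8.88, 8.56 and 2.56 FPKM against 0.850, 0.342 and 2.22 FPKM (1.80 ± 0.46 (SE)). Edn1 was not called (-0.99 ± 0.49 (SE)). That list counted 17 of 26 higher in MGCs and 0 in cumulus cells (median 1.47), and 13 and 0 after adjustment. At an unadjusted p under 0.05 limma gave 0 for cumulus cells, and voom called 1, beside 4096 and 4558 of all genes tested. Higher in MGCs were 34.5% of all genes as deposited and 20.1% after adjustment.

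Feedback inhibitors of the FGF and ERK pathway were, as deposited, higher in MGCs where they were called. Spry2 measured 63.0, 54.5 and 40.05 FPKM in MGCs and 2.56, 1.95 and 2.81 FPKM in cumulus cells (3.94 ± 0.19 (SE), adjusted 4.28), and the ERK phosphatase Dusp4 gave 3.12. Dusp6, a direct target of ERK signaling, was not called, at 26.1, 29.8 and 25.9 FPKM and 22.7, 23.0 and 37.1 FPKM (0.02 ± 0.19 (SE)). Of 20 tested genes 13 were higher in MGCs and 0 in cumulus cells (median 1.42), and 6 and 1 after adjustment, with 0 for cumulus cells at an unadjusted limma p under 0.05 and with voom. Over all genes tested the latter settings gave 4096 and 4558 for cumulus cells. Higher in MGCs were 34.5% of all genes as deposited and 20.1% after adjustment. In Wnt signaling, Sfrp4, a secreted Wnt antagonist, measured 512, 418 and 353 FPKM against 27.9, 13.1 and 23.8 FPKM (4.29 ± 0.28 (SE), adjusted 4.12), and the ligand Wnt4, known from ovarian development, 12.2, 11.2 and 9.87 FPKM against 0.504, 0.570 and 1.21 FPKM. The co-receptor Lrp5 and the receptor Fzd5 were under 0.2 FPKM in each cumulus library and gave 4.06 and 3.34. Counts were 25 of 35 higher in MGCs and 2 in cumulus cells (median 1.41), and 11 and 3 after adjustment. Of the 35, 21 reached the limit of 0.5 FPKM in MGCs alone. All genes tested gave 34.5% and 16.0%, and 20.1% and 19.9% after adjustment.

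Genes of sphingosine-1-phosphate (S1P), the lipid whose kinases the series deletes, were, as deposited, higher in MGCs where they were called. The kinase Sphk1 measured 1.68, 1.89 and 0.460 FPKM in MGCs and 0.0911, 0.0699 and 0.0954 FPKM in cumulus cells, and Sphk2 5.26, 5.86 and 5.18 FPKM against 0.403, 0.602 and 0.520 FPKM. Their differences of 1.05 ± 0.25 (SE) and 2.09 ± 0.11 (SE) were both called, but the adjusted ones were -1.03 and 0.12, and Sphk1 was not called without MGC library 1 (0.92) or without MGC library 2 (0.86). The negative adjusted value of Sphk1 stands beside 132, 151 and 37 reads in the MGC libraries and 7, 6 and 8 in the cumulus libraries. The receptor S1pr1 measured 7.80, 7.26 and 5.06 FPKM against 0.816, 0.219 and 0.579 FPKM (2.33 ± 0.20 (SE), adjusted 2.05), S1pr2 was called at 1.32 but not after adjustment (-0.19), and S1pr3 was not called (0.57 ± 0.14 (SE)). Sgpl1, the lyase that ends the signal, measured 22.0, 20.9 and 18.8 FPKM against 1.38, 1.33 and 1.36 FPKM (3.19 ± 0.10 (SE), adjusted 2.42). The calcium pump Atp2a2, which refills the endoplasmic reticulum, was at 89.5, 89.9 and 119 FPKM against 44.2, 43.5 and 51.6 FPKM (1.07 ± 0.15 (SE), adjusted 0.08), and was not called without MGC library 3 (0.94). Its small inhibitors were at the bottom of the range. Pln reached at most 0.108 FPKM and Mrln at most 0.257 FPKM in a WT library, under the limit for testing, and Sln, listed in the cumulus table alone, was at 0, 0 and 0.0432 FPKM there. Of 21 tested genes of S1P and calcium, 15 were higher in MGCs and 0 in cumulus cells (median 1.14), and 5 and 1, the latter Sphk1, after adjustment, when the median was -0.04. The count for cumulus cells was 0 at an unadjusted limma p under 0.05 as well, and 0 with voom, beside 4096 and 4558 of all genes tested. Higher in MGCs were 34.5% of all genes as deposited and 20.1% after adjustment.

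The genes of at least 10 FPKM with the largest differences also included many from outside these lists. On the MGC side were the hairpin Mir5125, with 312, 252 and 191 FPKM and 0 in each cumulus library, the imprinted gene Peg10, with 124, 121 and 108 FPKM against 0.0559, 0.00834 and 0.0512 FPKM, and Psap, the precursor of lysosomal saposins, with 351, 329 and 381 FPKM against 1.90, 2.19 and 2.70 FPKM. Prrc2a (6.28, adjusted 4.10), the endoplasmic reticulum chaperone Hyou1 (6.02, adjusted 4.60) and the fatty acid carrier Slc27a3 (6.02, adjusted 4.08) followed. On the cumulus side, Crabp2, which carries retinoic acid to its receptor, measured 12.3, 14.2 and 18.4 FPKM in MGCs and 669.6, 535 and 744 FPKM in cumulus cells (-5.35 ± 0.18 (SE), adjusted -5.05). Also there were Cetn3 of the centrosome, with 9.00, 8.88 and 8.78 FPKM against 407, 356 and 269 FPKM, the ribosome assembly factor Rpf2 with -5.06 ± 0.12 (SE), the mitophagy receptor Bnip3 with -4.88 ± 0.16 (SE), and Ranbp1, a regulator of nuclear transport, with 57.5, 58.02 and 63.0 FPKM against 1682, 1631 and 1395 FPKM. The pseudogenes Oaz1-ps (-6.13) and Rpl10-ps5 (-4.77) were also in this group, and reads of a processed pseudogene cannot be told apart with certainty from those of its parent gene.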

How the data were processed

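RNA-seq was measured in MGCs and cumulus cells of WT and Sphk1/2gc-/- females at 2 h post-hCG, 3 libraries per group in 4 groups, and groups were taken from the labels. Libraries were made from total RNA with a NEBNext Ultra kit with the same RNA input per sample. The submitters' processing notes name HISAT2 and GRCm38, and the counting tool and its settings are not given in the sources used here. The authors deposited FPKM per library in 1 table per cell type, which list 29101 and 33137 genes. The unit was read from the values: multiplied by the exon length of GENCODE M21 they were whole multiples of 1 read for 90.1% to 92.1% of the genes of a library, within 0.02 reads. The recovered reads served for depth, for low levels and for one alternative, and the 2 tables, normalized separately, were joined by Ensembl gene ID.

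FPKM were compared on the log2(FPKM + 1) scale with limma 3.58.1 (R 4.3.3), with an intensity trend for the variance and the 6 WT libraries in the fit, and p-values were adjusted over all 15339 genes by the Benjamini-Hochberg method. The threshold was an adjusted p of 0.05 and a log2 difference of 1. Tables were made with Python 3.11.15 and pandas 2.3.3, and the fit was checked on simulated data. For the adjusted differences, a surface of natural splines with 4 degrees of freedom for GC content and for log2 length of the longest transcript was subtracted from each library. Other cell types were measured by 11 marker lists, and 20 process lists were counted.

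Genes were named by a rule: the 10 called genes with the largest difference in each direction among those with at least 10 FPKM and no overlap of the libraries, the 3 called genes of the highest level in each direction, 40 genes of ovulation, and in each list up to 5 called genes with the largest difference and up to 2 of the most abundant not called. Predicted and mitochondrial genes were passed over in the first part, 2 toward MGCs and 8 toward cumulus cells. The rule gave 236 genes, of which the text describes a part, and 1 of them is not reported here. A further 50 genes of the text, among them Pcna, Mki67, Rgs2, Fst, Igf1, Id1, Gata4 and Edn2, lie outside the rule and were chosen after their values had been seen. Members and lists were chosen with earlier results of these data known. Promoters and mature microRNAs came from RefSeq tables of GRCm38.p6.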

Additional observations from a re-analysis of the deposited data

Results flagged for a closer look

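The difference between MGCs and cumulus cells was not the same in both genotypes for 600 of 15339 genes (limma interaction of cell type and genotype over 12 libraries, adjusted p of at most 0.05). Of the genes named here, 23 were among them, and the value given for each is the log2 difference in Sphk1/2gc-/- libraries minus that in WT libraries.

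Several lay among the steroid genes. Cyp19a1 gave 3.05, as the difference was 1.65 in WT and 4.70 in Sphk1/2gc-/- libraries, where mean levels were 310.3 FPKM in MGCs and 11.3 FPKM in cumulus cells. Hsd3b1 gave 2.25, Hsd17b1 2.13, Nr5a2 1.53 and Scarb1 -1.74. Signaling genes were Prkar2b with 1.44, Npr1 with -1.39, Pde7b with -1.42, Hbegf with -2.12 and Edn2 with -3.22, of which Hbegf and Edn2 changed side, being higher in Sphk1/2gc-/- cumulus cells at 12.97 and 8.79 FPKM. Among metabolic genes, Tpi1 gave 1.33, Pgk1 1.27, Slc2a1 -1.57, Slc38a3 -1.95 and Slc27a3 -0.90. The cell cycle genes that passed and are named here gave positive values, with 1.95 for Rfc4, 1.69 for Pola1, 1.88 for Birc5, 1.38 for Ube2c, 2.11 for Top2a and 1.71 for Mki67. Pola1 and Mki67 were chosen after their values had been seen. Other cell cycle genes named here, Aurka and Pcna among them, did not pass. The signs were not counted over all genes that passed or over the replication and mitosis lists. A common direction of these lists was therefore not tested. All values of this paragraph are differences as deposited, without adjustment for GC content and length. The sign also turned, from WT to Sphk1/2gc-/-, for Hsd17b1 (-1.67 to 0.46), Slc2a1 (1.38 to -0.18), Pola1 (-1.45 to 0.24), Top2a (-0.35 to 1.76) and Mki67 (-0.18 to 1.53). Itga5 gave -2.28 and the hairpin Mir212 -1.87.

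Signal was also present outside the comparison, in genes that only 1 of the tables lists. Of these, 315 in the MGC table and 88 in the cumulus table had a mean of at least 0.5 FPKM in WT libraries, 20 and 7 of them protein-coding, with means of up to 24.6 and 64.6 FPKM.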

How the results depend on the processing

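Counts of genes higher in MGCs were 5130 to 5538 after leaving out any 1 library, and those higher in cumulus cells 2410 to 2499, so no single library moved either count by over 1.5 times. With 2 libraries left in a group the spread was pooled over both groups. The count for MGCs was 3263 with a minimum of 5 FPKM, 3222 with quantile normalization, 8520 without a threshold on the fold, 3075 after adjustment for GC content and length, and 2471 with at least 1 FPKM in both cell types. For cumulus cells the count was 4558 with voom on recovered reads and 4033 without a threshold on the fold. Of 234 named genes tested, 178 were called, 175 to 185 without 1 library, 154 of them in the same direction under every scaling, filter, variance model, block and left-out library under which they were tested, and 101 with at least 1 FPKM in both cell types, where fewer genes were tested. Calls shared with the same contrast in the Sphk1/2gc-/- libraries numbered 5989, with 5935 to 6020 without 1 library and 3509 with at least 1 FPKM in both cell types. The adjustment kept 149 of the 178 calls and turned the sign of 6 named genes that were called before or after it, Inhbb (-1.68), S1pr2 (-0.19), Sphk1 (-1.03), Foxo1 (-1.06), Myh11 (-0.0511) and Notch3 (-1.10), and, among genes named after their values were seen, of Pold1 (-0.52) and Gata4 (-1.47). After it Sphk1 and Notch3 were called for cumulus cells, where they had few reads. Sphk1 had 132, 151 and 37 reads in the MGC libraries and 7, 6 and 8 in the cumulus libraries. Notch3 had 172, 159 and 162 against 3, 1 and 10. Further genes called neither before nor after the adjustment also changed sign. For the settings that moved a count, other than fewer genes tested, the cause was not tested. Quantile normalization took the call from 17 named genes, Ptx3 (-0.99) and Eef1a1 (-0.43) among them.

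Replicate numbers are shared by MGC and cumulus samples, but same-numbered samples did not deviate together (correlations of 0.00096, 0.0401 and 0.0123), so the numbers were not taken as pairs. With the replicate block 5302 genes were higher in MGCs and 2450 in cumulus cells, and with the block and the adjustment 3077 and 3048, with the same signs turned and the same values. Not every sample correlated best with its own number. Among the genes the rule gave, the block changed the call of 1, which it added. Low depth limits genes near 0.5 FPKM, where a library holds few reads, and intervals of the recovered reads would cover counting error only.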

Other observations

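Genes often used as references had no common direction. Gapdh measured 32.0, 31.9 and 26.8 FPKM in MGCs and 29.3, 33.3 and 30.2 FPKM in cumulus cells (-0.04 ± 0.11 (SE)), with an adjusted difference of -1.08 that was called for cumulus cells, whereas Actb measured 467, 500.1 and 365 FPKM against 88.3, 120.4 and 120.4 FPKM, Ppia 155, 158 and 177 FPKM against 3406, 3198 and 2599.6 FPKM, and Hprt 57.0, 57.9 and 51.8 FPKM against 802, 717 and 575 FPKM. Eef1a1, the translation elongation factor, measured 2216, 2282 and 2060.1 FPKM against 5938, 6794 and 6232 FPKM. Among 79 cytosolic ribosomal protein genes, whose products are made in equal number, 31 (39.2%) were called higher in MGCs and 13 (16.5%) in cumulus cells, close to the 34.5% and 16.0% of all genes tested, and the differences ran from -2.53 for Rpl4 to 5.63 for Rpl28, with an SD of 1.88 across genes. Rps15 measured 619, 689.5 and 572 FPKM in MGCs and 16.1, 26.4 and 13.3 FPKM in cumulus cells, and Rplp0 671, 721 and 592 FPKM against 2249.6, 2909 and 2433 FPKM. After adjustment for GC content and length the counts were 34 and 12. Many ribosomal protein genes have processed pseudogenes that can take their reads, and 316 of 968 processed pseudogenes tested were higher in cumulus cells and 171 in MGCs.

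Long noncoding RNAs known from the nucleus, Xist, Neat1 and Malat1, were higher in MGCs. Xist, the RNA of the inactive X chromosome, measured 62.2, 51.8 and 44.2 FPKM in MGCs and 1.94, 2.28 and 1.85 FPKM in cumulus cells (4.14 ± 0.14 (SE), adjusted 3.83). Neat1, the scaffold of paraspeckles, measured 26.4, 19.2 and 21.03 FPKM against 1.32, 0.849 and 1.54 FPKM, and Malat1 290.1, 249.7 and 68.9 FPKM against 31.5, 42.6 and 32.8 FPKM, with the lowest MGC value in library 3. Of 352 long intergenic RNAs tested, 83 (23.6%) were higher in MGCs and 35 (9.94%) in cumulus cells, and of 102 small nuclear RNAs 28 (27.5%) and 12 (11.8%), below the shares of all genes, and after adjustment the small nuclear RNAs gave 17 and 26. Long intergenic RNAs together took 0.415% to 0.713% of the counted reads in MGC libraries and 0.162% to 0.174% in cumulus libraries. Mitochondrial transcripts went the other way, with 3.83% to 4.48% of reads in MGCs and 5.51% to 7.09% in cumulus cells. The 100 most abundant genes held 23.2% to 25.6% of the reads of an MGC library and 34.3% to 34.8% of those of a cumulus library.

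The genes of these paragraphs, apart from Eef1a1, were chosen after their values had been seen. Of 139 small nucleolar RNAs, 62 (44.6%) were called for MGCs and 9 for cumulus cells, and of 135 microRNA hairpins 47 (34.8%) and 6, beside 34.5% and 16.0% of all genes. After adjustment the small nucleolar RNAs gave 41 and 23 and the hairpins 23 and 35. The ferritin light chain Ftl1 measured 38.1, 42.0 and 32.1 FPKM in MGCs and 754, 823 and 787 FPKM in cumulus cells (-4.37 ± 0.13 (SE), adjusted -4.32).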
